A study of Mus musculus with 4 samples.

Results

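Imprinted growth genes are expressed from one parental copy and set the pace of growth before birth. The 10 genes described here, of 55413 genes in GENCODE vM21, were taken by name: H19, Igf2, Dlk1, Meg3, Peg3, Mest, Plagl1, Grb10, Cdkn1c and Igf2r. Their chromatin accessibility was measured in hepatocytes of the regenerating mouse liver by single-nucleus ATAC-Seq, in which the Tn5 transposase cuts open DNA and each cut is assigned to a nucleus. There were 4 libraries, 1 from undamaged liver (0 h) and 1 for each of 3 times, 48, 72 and 96 h, that followed partial hepatectomy (PHx), an operation that takes out part of the organ. All animals were male C57BL/6J mice aged 10 to 12 weeks per the labels and fed a normal diet, and hepatocytes were freed by a collagenase perfusion of the liver. The 48 h library came from 1 mouse, and how many animals gave the 72 and 96 h libraries is not stated in the sources at hand. With 1 library per time there was no replicate and no test, so every difference below is between libraries, and every 95% interval covers counting error only. Reads copied by PCR are not independent molecules, and the interval was taken on one count per 2 cuts because both ends of a fragment usually count.

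In imprinting, methylation laid down in the egg or the sperm at a control region marks one parental copy, and ZFP57 is a zinc finger protein known to keep that methylation in the embryo. H19, a noncoding RNA, and Igf2, a fetal growth factor, share an insulator upstream of H19 that the factor CTCF binds on the unmethylated maternal copy. The genes are known to be expressed widely in the fetus, fetal liver included, and many are silenced in the liver after birth. Accessibility is not expression, the cuts carry no strand, and the parental copies could not be told apart in these files.

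A level here is the number of cuts in called peaks that overlap the gene body or the 2 kb upstream, each peak counted whole, summed over nuclei with at least 1000 counts, per 1000000 counts in all peaks (CPM). Between 3224 and 4256 nuclei per library met this minimum. The libraries differed in depth, with a median of 26005 counts per nucleus at 0 h, 11629 at 48 h, 4841 at 72 h and 3681.5 at 96 h. Peaks had been called in each library on its own and covered 153.6, 179.0, 141.2 and 60.9 Mb, so a level can move with covered peak length, which is given for the 10 genes. A gene with no peak has no value, which is not the same as closed chromatin. Pairs of libraries shared 681 to 882 cell barcodes, and 877 nuclei of the 0 h library, 237 at 48 h, 125 at 72 h and 123 at 96 h had a barcode also found in another library. Those of the 0 h library were deep, with a median of 72341 counts, and held 67313546 of its 136582768 counts. Leaving these nuclei out of all libraries changed none of the 2-fold calls of the members below. The log2 ratio that moved most was that of Plagl1 at 96 h, which was 0.77 with them and 0.61 without. Hepatocyte markers were open in every library (10 of 10 with counts, summed levels from 4231 to 6282 CPM), while endothelial markers summed to between 229.8 and 474.4, stellate and mesenchymal markers to between 81.2 and 181.6, and markers of Kupffer and other myeloid cells to between 70.7 and 149.0. In sums over nuclei, fewer open nuclei and less opening per nucleus cannot be told apart.

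Letters that CTCF, ZFP57 and YY1 are known to bind were searched at control regions and starts of these genes, and the sequences are shown here because the peaks described below lie on them. In the 10 kb upstream of H19, the CTCF core, searched on both strands as CCGCG and GGCAG with 4 bases between them, was found at 3 places, at 2.17, 2.62 and 3.89 kb from the gene's 5′ end. The upstream region with the first 2 (947 bp) is like 12500 regions in length, of which 0.056% held any such letters, and that with the other (549 bp) is like 12017, of which 0.0166% did. Each is given with 43 bases on both sides, read from GRCm38 (mm10) on the minus strand, with the core in capitals.
H19 site 1, chr7:142580266-142580365: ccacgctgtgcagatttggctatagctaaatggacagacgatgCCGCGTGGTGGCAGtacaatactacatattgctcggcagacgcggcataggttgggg
H19 site 2, chr7:142580721-142580820: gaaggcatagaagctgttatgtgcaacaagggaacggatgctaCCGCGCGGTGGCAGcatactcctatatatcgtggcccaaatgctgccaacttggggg
H19 site 3, chr7:142581991-142582090: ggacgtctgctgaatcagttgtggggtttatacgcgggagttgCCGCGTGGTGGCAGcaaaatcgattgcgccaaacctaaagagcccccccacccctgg

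The core letters of ZFP57, TGCCGC, were searched on both strands. The regions named here were set against others of like length, and the core was frequent in several. They occurred 11 times in the Mest region of 1729 bp, where none of 8493 regions within 10% of its length held as many and 24% held any. The Plagl1 region of 933 bp held 6 (as many in 0.00785% of 12732 regions of like length, any in 10.6%), the region upstream of Meg3 6 in 1383 bp (0.0409% of 9789, any in 18.6%), and the region over the start of Airn, the noncoding RNA within Igf2r, 8 in 3142 bp (0.0719% of 4175, any in 42.9%). The core was less rare in the Peg3 region (8 in 4075 bp, as many in 0.373% of regions of like length), over the Grb10 start (5 in 3893 bp, 2.04%) and over the Kcnq1ot1 start (3 in 2871 bp, 6.61%). The upstream H19 regions held 3 each, in 947 bp (0.256%) and in 549 bp (0.025%). Another Grb10 start region (chr11:12025394-12026742) held 4 in 1349 bp and was not set against regions of like length. The Peg3 region held 12 matches to the YY1 core GCCATNTT in 4075 bp, a number reached by 0.0373% of 2681 regions of like length, of which 50.4% held any. YY1 is a zinc finger factor. In the RefSeq promoter windows the ZFP57 core stood in 11.6% and the YY1 core in 6.05%. A match is a description of the letters and not a bound site, and these regions were also rich in CpG, with 100 in the Mest region and 136 in the Peg3 region. The stretch of each region with the most matches is given below from GRCm38, with the core on either strand in capitals.
Peg3, chr7:6728222-6728521, minus strand, YY1: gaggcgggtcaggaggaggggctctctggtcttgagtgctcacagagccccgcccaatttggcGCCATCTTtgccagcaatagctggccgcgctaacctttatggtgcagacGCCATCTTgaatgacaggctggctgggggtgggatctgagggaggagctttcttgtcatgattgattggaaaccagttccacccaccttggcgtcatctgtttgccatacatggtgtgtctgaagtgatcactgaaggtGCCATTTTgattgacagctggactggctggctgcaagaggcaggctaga
Mest, chr6:30738072-30738371, plus strand, ZFP57: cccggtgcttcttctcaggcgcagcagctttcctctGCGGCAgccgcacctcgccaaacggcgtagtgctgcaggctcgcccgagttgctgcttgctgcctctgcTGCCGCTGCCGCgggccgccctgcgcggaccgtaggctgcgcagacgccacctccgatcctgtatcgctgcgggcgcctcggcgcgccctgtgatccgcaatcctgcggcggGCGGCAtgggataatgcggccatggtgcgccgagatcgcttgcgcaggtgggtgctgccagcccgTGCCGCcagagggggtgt
Plagl1, chr10:13091002-13091301, plus strand, ZFP57: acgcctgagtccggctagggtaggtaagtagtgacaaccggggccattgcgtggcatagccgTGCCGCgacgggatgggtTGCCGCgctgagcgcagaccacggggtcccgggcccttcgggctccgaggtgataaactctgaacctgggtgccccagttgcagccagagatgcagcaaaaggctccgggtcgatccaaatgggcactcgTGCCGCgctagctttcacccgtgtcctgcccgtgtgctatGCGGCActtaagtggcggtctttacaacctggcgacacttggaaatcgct
Airn in Igf2r, chr17:12742160-12742459, plus strand, ZFP57: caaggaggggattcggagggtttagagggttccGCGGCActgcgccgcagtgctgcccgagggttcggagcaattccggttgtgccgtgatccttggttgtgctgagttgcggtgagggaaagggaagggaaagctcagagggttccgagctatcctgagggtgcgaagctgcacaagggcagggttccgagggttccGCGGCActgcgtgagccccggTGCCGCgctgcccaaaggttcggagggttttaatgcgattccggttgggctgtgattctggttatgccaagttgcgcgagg
Upstream of Meg3, chr12:109528276-109528475, plus strand, ZFP57: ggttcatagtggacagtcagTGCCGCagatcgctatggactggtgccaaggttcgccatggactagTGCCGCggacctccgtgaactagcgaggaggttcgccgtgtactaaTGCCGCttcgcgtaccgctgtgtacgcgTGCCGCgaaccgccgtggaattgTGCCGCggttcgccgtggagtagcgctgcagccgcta

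The level of each gene in the 4 libraries followed several courses. Igf2, Mest and Plagl1 were higher at 48 and 72 h than at 0 h, Peg3 was lower at these times, and Meg3 and Cdkn1c stayed within a narrow range.

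**Figure D1:**
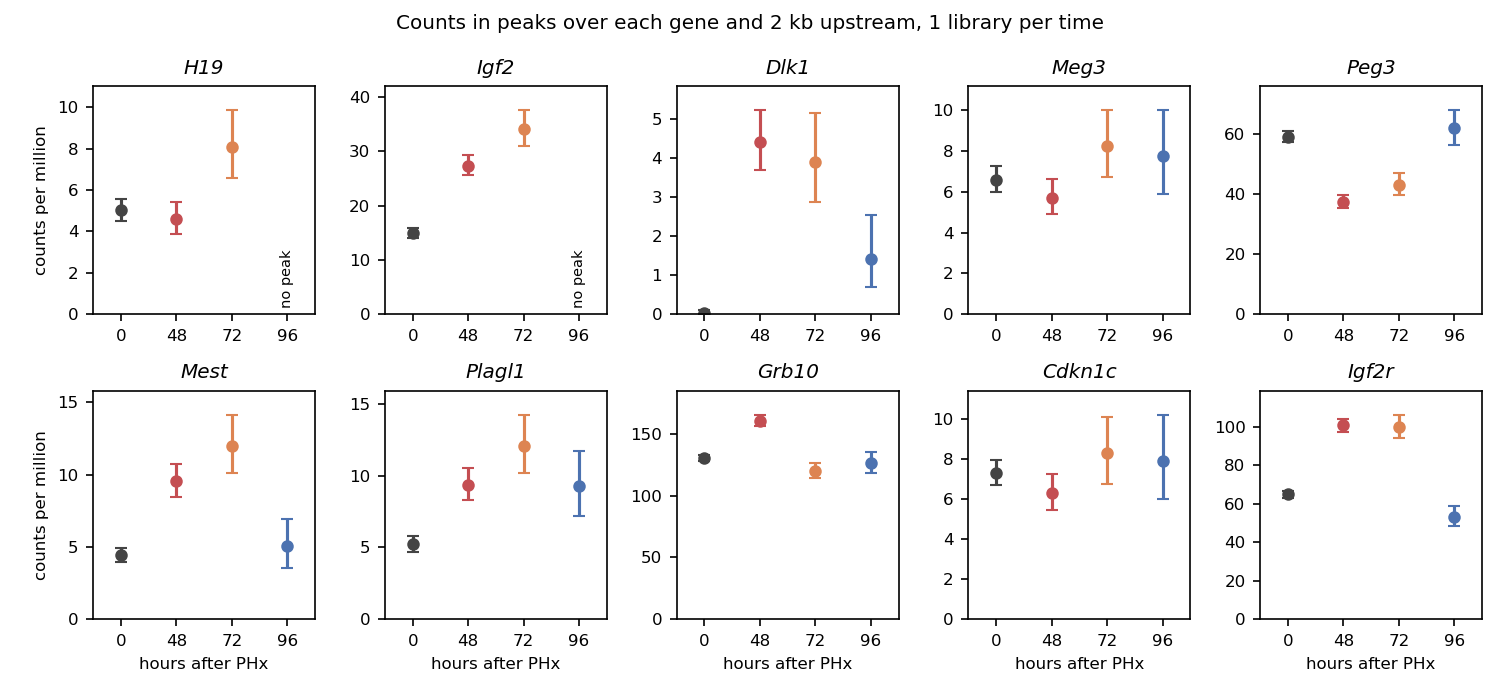
Counts per 1000000 (CPM) in peaks over each gene and 2 kb upstream (y axis, starting at 0), 1 library for each time after PHx (x axis: 0, 48, 72, 96 h), with 95% counting intervals. Igf2 went from 14.9 to 34.1 CPM at 72 h and had no peak at 96 h, as had H19, and Peg3 was at 37.5 CPM at 48 h against 59.2 at 0 h.

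Igf2 (ENSMUSG00000048583.16, chr7:142650766-142666816, minus strand) encodes insulin-like growth factor 2. Its level was 14.9 CPM (95% interval 14–15.8) at 0 h, 27.4 (25.6–29.3) at 48 h and 34.1 (30.9–37.5) at 72 h, and no peak was called over it at 96 h. The first 3 intervals did not overlap, and the level was 1.84-fold higher at 48 h (1.68–2.01) and 2.29-fold higher at 72 h (2.04–2.56) than at 0 h. The covered length also grew, from 5714 bp at 0 h to 9195 bp at 48 h and 9426 bp at 72 h, and per kb of peak the levels were 2.61, 2.98 and 3.61 CPM.

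Within Igf2, the rise in summed CPM was largest at the 5′ end of the annotated gene. The region at chr7:142663911-142667808, which holds the outermost transcript start, had 2.50 CPM at 0 h, 9.23 at 48 h and 13.3 at 72 h. Its called length grew too, over 1204, 3163 and 3800 bp, and per kb it had 2.08, 2.92 and 3.49 CPM. Per kb the rise was not largest there, as chr7:142656065-142657691 had 2.17, 3.06 and 4.26 CPM. The main region further in, at chr7:142658541-142662663 over 4 annotated starts, had 7.87, 9.76 and 11.4 CPM. The overlapping noncoding transcripts Igf2os and Gm49394 share these cuts.

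The lack of Igf2 peaks at 96 h was set against other peaks, a check chosen after the values were seen. The strongest 0 h peak of Igf2 (chr7:142660509-142662663) held 7.39 CPM, which would be 110 counts at 96 h. Of 1975 other 0 h peaks like it in counts and length (a ratio of at least 0.8 either way), 82.3% overlapped a 96 h peak. The 6 weaker Igf2 peaks listed had like peaks of which 3.41 to 22% overlapped one at 96 h.

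H19 (ENSMUSG00000000031.16, chr7:142575529-142578143, minus strand), a noncoding RNA that hosts the microRNA gene Mir675, was reached almost only through its upstream insulator. Its level was 5.01 CPM (4.50–5.58) at 0 h, 4.58 (3.86–5.4) at 48 h and 8.09 (6.58–9.84) at 72 h, with no peak in the window at 96 h. Over the H19 start itself a peak was called only at 72 h, with 1.01 CPM (0.531–1.75). The first upstream region (chr7:142580074-142581020), which holds CTCF sites 1 and 2, had 5.01, 4.32, 6.80 and 2.21 CPM (1.28–3.56 at 96 h) over 931, 921, 936 and 400 bp. It thus had a peak in all 4 libraries, but the 96 h peak began past the 2 kb limit of the window, and per kb its level was 5.39, 4.69, 7.26 and 5.52 CPM. The 96 h peak covered 2 of the 14 bases of site 1 and none of site 2. The second upstream region (chr7:142581645-142582193) had 0.879, 1.65 and 1.94 CPM and no peak at 96 h. Its peaks covered 0, 14 and 12 bases of site 3 at 0, 48 and 72 h.

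In the 72.6 kb between H19 and Igf2, peaks were called in 6 regions at 0 h, 15 at 48 h, 12 at 72 h and 4 at 96 h. All 4 regions of the 96 h library had a peak in each of the other libraries. The strongest, at chr7:142628272-142631954 and 52.0 kb upstream of H19, had 11.7, 13.6, 19.2 and 14.9 CPM. Another, 44.3 kb upstream (chr7:142621802-142623023), had 2.31, 5.98, 6.88 and 4.22 CPM, so that each time after PHx was above 0 h there. These regions were looked at after the values of the genes were seen.

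**Figure D2:**
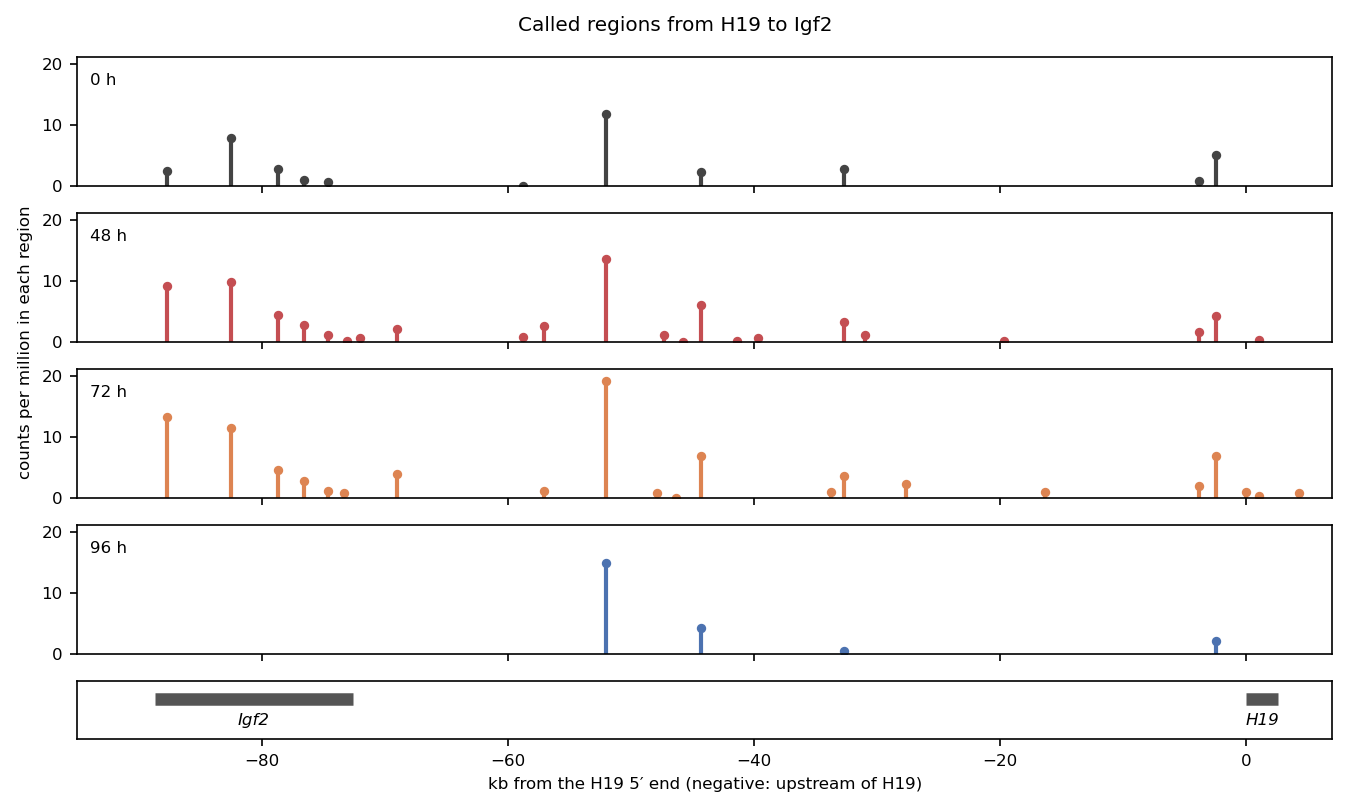
Counts per 1000000 (CPM) in each called region (y axis) from Igf2 to H19 by distance in kb from the H19 5′ end (x axis, negative values upstream of H19), 1 row per library, with the genes drawn below. At 96 h the 4 regions between the genes had peaks and Igf2 had none.

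Dlk1 and Meg3 form the other domain with a paternally and a maternally expressed gene. Dlk1 (ENSMUSG00000040856.17, chr12:109452823-109463336, plus strand), a transmembrane protein of the Notch ligand family found in hepatoblasts, had 0.0366 CPM (0.00609–0.117) at 0 h, 4.40 (3.70–5.21) at 48 h, 3.88 (2.86–5.15) at 72 h and 1.41 (0.688–2.55) at 96 h. The 0 h value came from 5 counts in a peak of 24 bp, although this library was the deepest. The intervals of the later libraries all lay above it. Cuts outside called peaks are not counted, so a peak this short holds the 0 h value near 0. The covered length at the later times was 1759, 1071 and 173 bp. Per kb of peak the levels were 1.52, 2.50, 3.62 and 8.13 CPM in order of time. The mean of 2.43 CPM was under the 3 CPM needed for a call, so Dlk1 is the 1 gene of the 10 without one.

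The Dlk1 promoter region (chr12:109452165-109453504) carried most of this, with 0.0366, 3.40, 2.59 and 1.41 CPM. A region about 2 kb upstream of it (chr12:109449440-109450667) had no count at 0 h, in a peak of only 2 bp. It had 3.18, 3.52 and 2.14 CPM later, over 1228, 1079 and 231 bp. Its 0 h value is thus set by the called length and does not measure the region. Of 4678 48 h peaks like the one at the promoter in counts and length, 82.7% overlapped a 0 h peak. A 0 h level as low was seen in 18.4%, those without a peak entered at 0.

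Meg3 (ENSMUSG00000021268.17, chr12:109541001-109571726, plus strand), a noncoding RNA expressed from the maternal copy, did not share this course. Its level was 6.61 CPM (6.02–7.25) at 0 h, 5.71 (4.90–6.62) at 48 h, 8.25 (6.73–10.0) at 72 h and 7.77 (5.90–10.0) at 96 h, and the intervals of 0 h and of each later time overlapped. The covered length was 1336, 1647, 1812 and 1048 bp. The main peak (chr12:109541935-109543284), 934 to 2283 bp into the gene over 2 annotated starts, had 6.61 (6.02–7.25), 5.0 (4.24–5.85), 5.78 (4.52–7.29) and 7.77 (5.90–10.0) CPM, so that here the 48 h interval lay below that of 0 h, at 0.756-fold (0.626–0.910).

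In the 77.7 kb between Dlk1 and Meg3, peaks were called in 6, 9, 12 and 6 regions with 58.9, 57.5, 62.6 and 48.9 CPM in all. The region 13.1 kb upstream of Meg3, where the intergenic control region of this domain is known to lie and whose sequence is given above (chr12:109527242-109528624), had 6.69, 7.10, 10.2 and 8.44 CPM over 1290, 1334, 1216 and 881 bp. The strongest, 8.86 kb upstream (chr12:109530204-109534080), had 24.7, 22.7, 21.9 and 21.8 CPM. All 6 regions of the 0 h library had a peak in each later one, and the lowest at 96 h, 31.2 kb upstream, had 4.34, 6.47, 6.59 and 0.536 CPM.

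**Figure D3:**
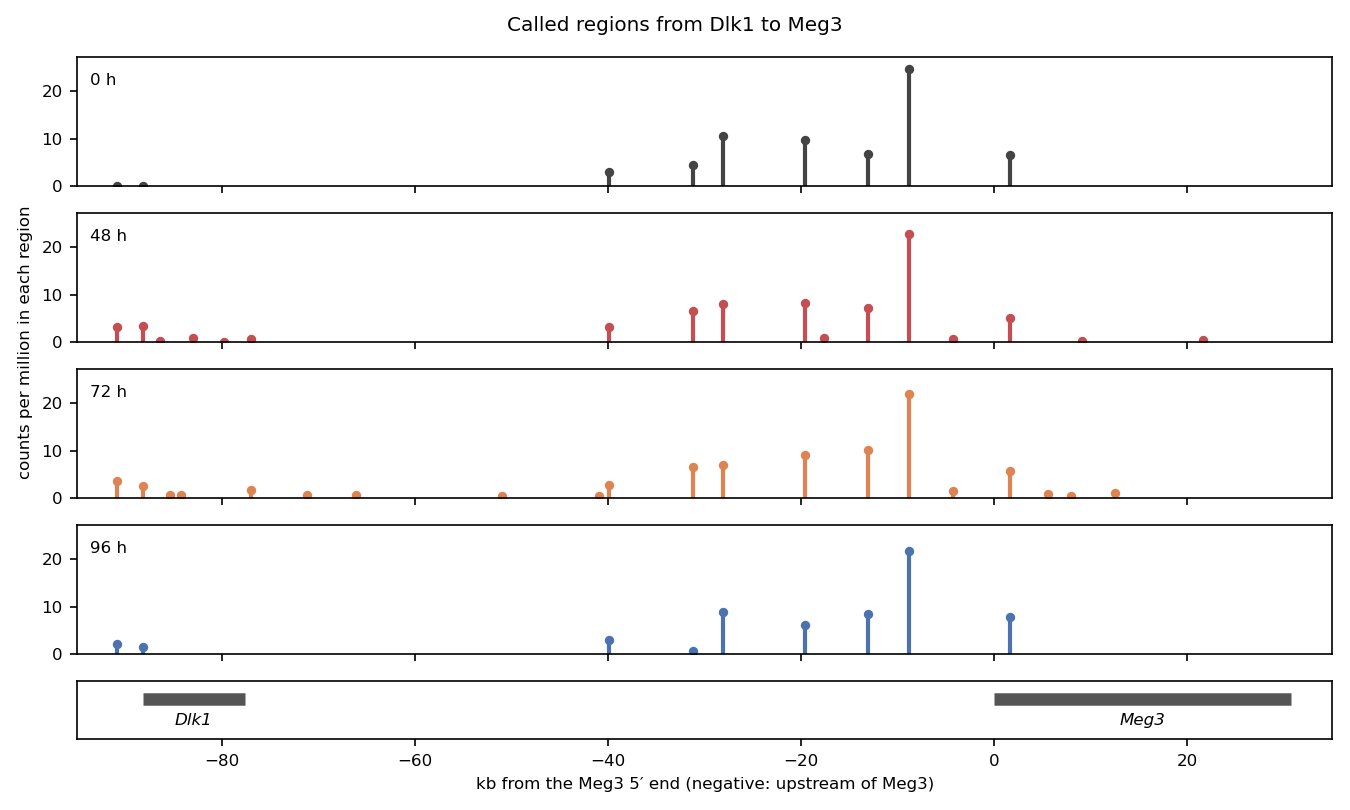
Counts per 1000000 (CPM) in each called region (y axis) from Dlk1 to Meg3 by distance in kb from the Meg3 5′ end (x axis, negative values upstream of Meg3), 1 row per library, with the genes drawn below. The region 8.86 kb upstream of Meg3 was the highest in each library, and the regions at Dlk1 were near 0 at 0 h, in peaks of 2 and 24 bp.

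Peg3 (ENSMUSG00000002265.16, chr7:6703892-6730431, minus strand), a paternally expressed zinc finger protein, had the highest level per kb of the 10 genes in every library. Its single region (chr7:6727004-6731078), over 3 annotated starts and shared with the start of Usp29, had 59.2 CPM (57.4–61.0) at 0 h, 37.5 (35.4–39.8) at 48 h, 43.2 (39.6–47.0) at 72 h and 62.0 (56.5–67.9) at 96 h. The intervals at 48 and 72 h lay below that at 0 h, and that at 96 h overlapped it. This peak was called at near-equal length in the 4 libraries (4075, 3663, 3555 and 3330 bp), so called length moved little with it. Against 0 h the Peg3 level was 0.635-fold (0.594–0.678), then 0.730-fold (0.666–0.799) and, in the last library, 1.05-fold (0.950–1.15).

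Of the regions called at near-equal length in all libraries, 1588 had a mean of at least 3 CPM, and their log2 ratios to 0 h had medians of 0.00, 0.32 and 0.81. Peg3 stood at -0.65, -0.45 and 0.07, which is above 1.20, 4.66 and 5.35% of those regions. The other member region of this kind, in Grb10 (chr11:12025394-12026742), had 8.81, 8.13, 10.6 and 15.9 CPM and log2 ratios of -0.11, 0.25 and 0.82, above 36.6, 43.3 and 50.5% of them.

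Mest, a paternally expressed enzyme-like protein of the alpha/beta hydrolase fold, and Plagl1, a zinc finger factor known to regulate other imprinted genes, were both higher at 48 and 72 h. Mest (ENSMUSG00000051855.15, chr6:30723547-30748465, plus strand) had 4.40 CPM (3.92–4.93) at 0 h, 9.53 (8.48–10.7) at 48 h, 12.0 (10.1–14.1) at 72 h and 5.02 (3.54–6.91) at 96 h. It was 2.17-fold (1.84–2.55), 2.72-fold (2.22–3.32) and 1.14-fold (0.790–1.61) of 0 h. The covered length was 1134, 2510, 2350 and 452 bp, and per kb of peak the 48 h log2 ratio was -0.03. In the region over its annotated internal starts (chr6:30736815-30738543), the one with 11 ZFP57 cores, the levels were 4.38, 7.06, 9.91 and 5.02 CPM and the log2 ratios 0.63, 1.09 and 0.18.

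Plagl1 (ENSMUSG00000019817.18, chr10:13060504-13131694, plus strand) had 5.23 CPM (4.70–5.80) at 0 h, 9.36 (8.31–10.5) at 48 h, 12.1 (10.2–14.2) at 72 h and 9.24 (7.19–11.7) at 96 h. All 3 later intervals lay above that at 0 h. The covered length was 1293, 2210, 1884 and 839 bp, and per kb of peak the log2 ratios were 0.06, 0.65 and 1.41, against 0.78, 1.14 and 0.77 without this division. Its region with 8 annotated starts (chr10:13090385-13091317) had 1.62, 4.10, 5.54 and 2.34 CPM (1.38–3.73 at 96 h), and the intronic region about 3 kb before it (chr10:13086780-13087650) had 3.60, 4.21, 5.14 and 6.90. Of 7477 48 h peaks like that at the start, 99.4% overlapped a 0 h peak, and 7.05% had a 0 h level as low as its 1.62 CPM, those without a peak entered at 0. The 10 endothelial markers summed to 377.2, 411.1, 474.4 and 229.8 CPM, with 1, 0, 0 and 1 of them without a count. The 9 stellate and mesenchymal markers summed to 81.2, 135.3, 181.6 and 139.9 CPM, with 2, 0, 1 and 3 of them without a count. The 9 markers of Kupffer and other myeloid cells summed to 70.7, 136.7, 149.0 and 101.4 CPM, with 6, 3, 2 and 6 without a count. The 5 lymphoid markers summed to 0.0293, 47.0, 2.43 and 0 CPM, with 4, 1, 3 and 5 without a count, and Cd79a alone gave 44.5 of the 47.0. The 6 cholangiocyte markers summed to 124.5, 103.7, 104.1 and 100.7 CPM, with 3, 1, 0 and 3 without a count. The part of these cells in the levels of Mest and Plagl1 was not tested.

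Among the genes that restrain growth, Grb10 had the highest summed level of the 10 genes in every library, and Grb10 and Igf2r were covered by the most peaks. Grb10 (ENSMUSG00000020176.17, chr11:11930508-12038683, minus strand), an adaptor that binds the insulin and IGF1 receptors, had 130.7 CPM (128–133) at 0 h, 160.5 (156–165) at 48 h, 119.6 (114–126) at 72 h and 126.4 (118–135) at 96 h, over 20395, 26196, 18429 and 9260 bp. Its log2 ratios of 0.30, -0.13 and -0.05 were -0.06, 0.02 and 1.07 per kb. Its largest region, at the 3′ end of the gene (chr11:11927879-11934358), had 40.1, 48.1, 27.7 and 32.1 CPM. Its start region (chr11:12035523-12039415) went from 4.56 (4.07–5.10) to 11 (9.89–12.3), 13.2 (11.2–15.4) and 7.30 (5.49–9.51) CPM, and all later intervals lay above that at 0 h. The covered length of this start region was 1700, 3505, 3093 and 647 bp.

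Igf2r (ENSMUSG00000023830.14, chr17:12682406-12769664, minus strand), the receptor that carries IGF2 to the lysosome, had 64.8 CPM (62.9–66.8) at 0 h, 100.8 (97.3–104) at 48 h, 99.8 (94.3–106) at 72 h and 53.3 (48.2–58.8) at 96 h. The covered length ran from 15515 bp at 0 h to 27808 bp at 48 h, 22120 bp at 72 h and 5366 bp at 96 h. In peaks of regions seen in all libraries the log2 ratios were 0.16, 0.23 and -0.01, against 0.63, 0.62 and -0.28 over all its peaks, and per kb of covered peak they were -0.20, 0.11 and 1.22. Its own start (chr17:12768022-12771433) had 13.4 (12.6–14.3), 10.2, 7.93 and 8.10 (6.19–10.4) CPM in the 4 libraries in order of time. The region over the Airn start (chr17:12739786-12742927) went the other way, from 13.3 (12.4–14.2) to 20.1 (18.5–21.7), 18.7 (16.4–21.3) and 17.5 (14.6–20.7) CPM. At the 2 starts the intervals of each later library lay below and above that of 0 h, respectively. The called length of the Igf2r start was 2829, 2361, 1868 and 872 bp and that of the Airn start 2774, 3125, 2683 and 1825 bp. Per kb the Igf2r start had 4.74, 4.31, 4.24 and 9.29 CPM and the Airn start 4.78, 6.43, 6.96 and 9.58, so that per kb both were higher at 96 h than at 0 h.

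Cdkn1c (ENSMUSG00000037664.13, chr7:143458339-143461050, minus strand), a cyclin-dependent kinase inhibitor, had 7.31 CPM (6.69–7.98) at 0 h, and 6.32, 8.29 and 7.90 CPM later, over 2019, 1925, 1403 and 887 bp. The ratios to 0 h were 0.864 (0.729–1.02), 1.13 (0.907–1.40) and 1.08 (0.810–1.42), so each interval held 1. The region over the start of Kcnq1ot1 (chr7:143294270-143297140), the noncoding RNA of its domain, had 12.3, 11.9, 9.95 and 9.51 CPM.

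Per kb of covered peak at 0 h, the levels of the 10 genes ran from 14.5 CPM for Peg3 through 6.41 for Grb10, 5.39 for H19, 4.95 for Meg3, 4.18 for Igf2r, 4.04 for Plagl1, 3.88 for Mest, 3.62 for Cdkn1c and 2.61 for Igf2 to 1.52 for Dlk1.

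Over the gene windows, 9 of the 10 members had a mean of at least 3 CPM, as had 24203 genes in all. At 48 h against 0 h, 1 member (Mest) was at least 2-fold higher, where 7.69% of all genes were, and 0 were at least 2-fold lower, where 2.53% were. At 72 h against 0 h, 3 members (Igf2, Mest and Plagl1) were higher, where 12.1% of all genes were, and 0 were lower, where 7.71% were. At 96 h against 0 h, 0 members were higher, where 6.64% of all genes were, while H19 and Igf2, with no peak in the window and so entered at 0 CPM, were the 2 counted as lower, where 13.5% of all genes entered in the same way were. The first upstream region of H19 did have a 96 h peak, outside the window. The median log2 ratio of the 9 members was 0.30, 0.62 and 0.07, beside -0.02, 0.00 and 0.06 over all genes, with H19 and Igf2 again at 0 CPM at 96 h. Per kb of covered peak the medians were -0.14, 0.11 and 1.07, beside -0.18, 0.19 and 1.19 over all genes. In peaks of regions seen in all libraries they were -0.02, 0.20 and 0.09, beside -0.08, -0.03 and 0.15. These 3 comparisons share the 0 h library. Per kb of covered peak 0 members were 2-fold higher at 48 and 72 h, and in peaks of regions seen in all libraries 0 were at 48 h and 1 (Mest) at 72 h. Of all genes, 0.909 and 3.02% were per kb, and 4.9 and 8.28% in regions seen in all libraries. In binarised counts, where each peak counts once per nucleus, Mest (log2 ratios 0.72 and 0.81), Igf2 and Plagl1 (0.61 and 0.63 at 72 h) were under 2-fold, where 5.39 and 8.18% of all genes were higher.

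**Figure D4:**
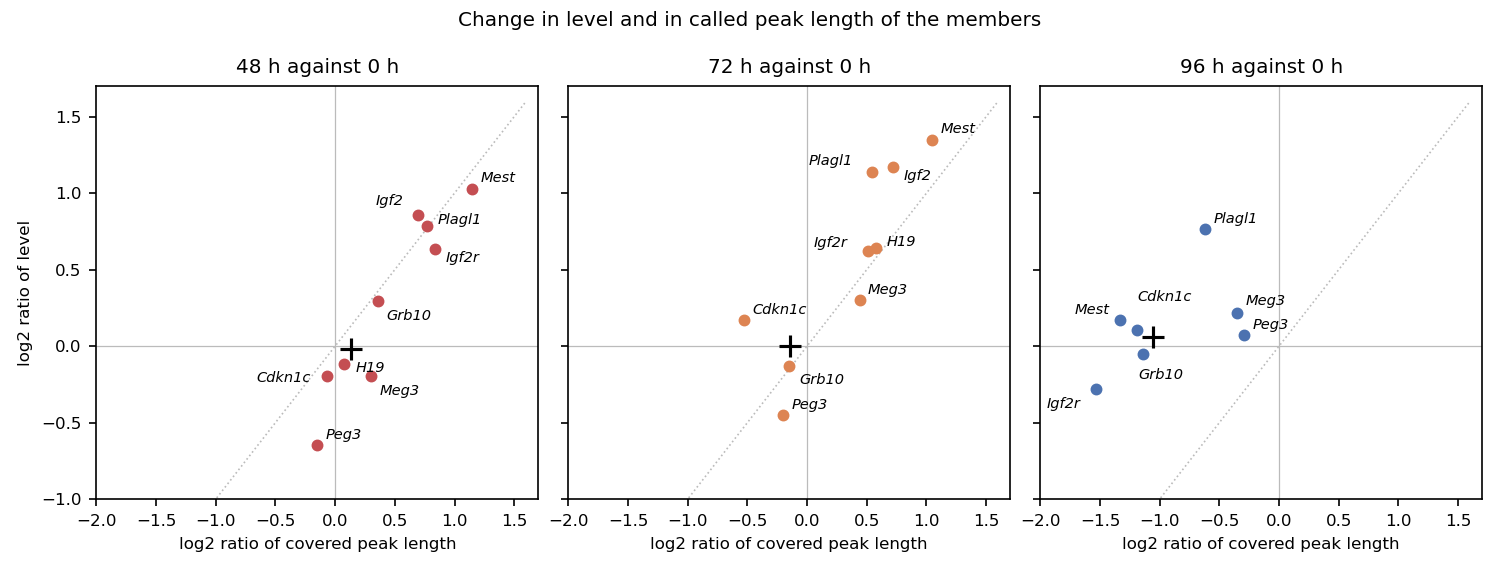
Log2 ratio of level (y axis) against log2 ratio of covered peak length (x axis) of the members, each later library against 0 h, with the medians of all genes as a cross and the line of equal change dotted. Mest lay at the upper right at 48 and 72 h, Peg3 lay below the other members at both times, and at 96 h all 7 members with a peak that passed the minimum lay left of 0 on the x axis.

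In the promoter alone, the 1000 bp on each side of the annotated 5′ end, 5 of the 10 members passed the same minimum. Igf2 and Grb10 were at least 2-fold higher at 48 h (8.03% of 19553 genes were) and at 72 h (10.0%). Peaks that overlap the window were counted whole, and at Igf2 these covered 396, 3163 and 3800 bp. At 0 h the region over the outermost Igf2 start was split into 3 peaks, of which that of 808 bp lay outside the window, so no fold is given for the window. Over the whole region the levels were the 2.50, 9.23 and 13.3 CPM given above. At 96 h Igf2, with no peak, was 1 member at least 2-fold lower (15.6% of genes were), and 0 members were lower at 48 h (3.37%) or 72 h (10.4%) or higher at 96 h (7.49%). At the annotated 5′ ends of Mest and Plagl1 no library had a peak. Their peaks lay at the starts further in, described above.

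Per nucleus, counts were few. With every nucleus thinned to 1000 counts, a count at Grb10 was found in 10.6, 13.5, 10.1 and 9.52% of nuclei, at Peg3 in 5.73, 3.57, 3.41 and 4.34%, and at Igf2r in 5.66, 8.32, 8.34 and 4.90%. For Igf2 the shares were 1.46, 2.42 and 2.47% at 0, 48 and 72 h, and for Dlk1 they were 0.642, 0.258 and 0.0620% at 48, 72 and 96 h. Without thinning, the share at Grb10 was 68.4, 57.7, 27.9 and 24.6%, with the depth of the libraries.

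The nuclei were grouped into 8 clusters on regions seen in all libraries. The 6 clusters with more counts at hepatocyte markers held 92.6, 94.5, 93.3 and 97.5% of nuclei, and most of these nuclei lay in a different cluster in each library. The other 2 clusters, with fewer counts at these markers, held 7.44, 5.52, 6.72 and 2.54% of nuclei and 1.19, 1.21, 2.28 and 0.777% of counts. One of them had 8 of 10 endothelial markers and 1 stellate or mesenchymal marker at least 2-fold above the other clusters. The other had 4 myeloid markers above in this way, of 9 listed and 6 that reached 3 CPM in a cluster. It also had 2 endothelial markers above, and both clusters stay unnamed.

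Summed over these 2 clusters, Mest, Plagl1 and Cdkn1c had higher levels than in the 6 clusters in all 4 libraries, on few counts. Mest had 18.5, 23.9, 30.1 and 25.9 CPM there, from 30, 18, 17 and 3 counts, and 4.23, 9.36, 11.6 and 4.86 in the 6 clusters, and the intervals did not overlap at 0 and 48 h. Plagl1 had 23.4 CPM (14.1–36.5) against 5.01 (4.49–5.57) at 0 h, and Cdkn1c 26.5 (16.5–40.3) against 7.08 (6.46–7.75). The 48 h interval of Plagl1 (3.59–29.1 around 12.0 CPM) held its level of 9.32 in the 6 clusters, and the 96 h value of Cdkn1c came from 1 count. Of all counts, the 2 clusters gave 4.35% at Mest, 3.99% at Plagl1 and 3.91% at Cdkn1c. Peg3 and Grb10 were lower in the sum in all 4 libraries, with 41.2 against 59.4 and 73.2 against 131.4 CPM at 0 h.

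The sum joins 2 clusters whose levels were unlike at 0 h, the time with the most counts. Plagl1 then had 44.2 CPM (26.0–70.3) in the cluster with endothelial markers and 3.60 (0.259–15.4) in that with myeloid markers, and Peg3 had 74.5 (50.1–106.7) and 9.61 (2.62–24.6). Grb10 had 107.3 CPM (77.5–144.8) and 40.8 (23.8–65.4), also apart. The intervals overlapped for Mest, with 26.5 CPM (13–48.1) and 10.8 (3.24–26.3), and for Cdkn1c, with 32.8 (17.5–56.1) and 20.4 (9.09–39.5). At later times these 5 genes had 0 to 45 counts in either cluster, and the order against the 6 clusters was not the same at each time. Peg3 in the cluster with endothelial markers had 74.5, 39.0, 33.0 and 52.6 CPM and in the 6 clusters 59.4, 37.8, 43.6 and 62.2. Plagl1 in the cluster with myeloid markers had 3.60, 9.0, 20 and 99.9 CPM, from 3 or 4 counts each, and in the 6 clusters 5.01, 9.32, 11.7 and 8.91. A cluster against the rest is no test, so these are descriptions.

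**Figure D5:**
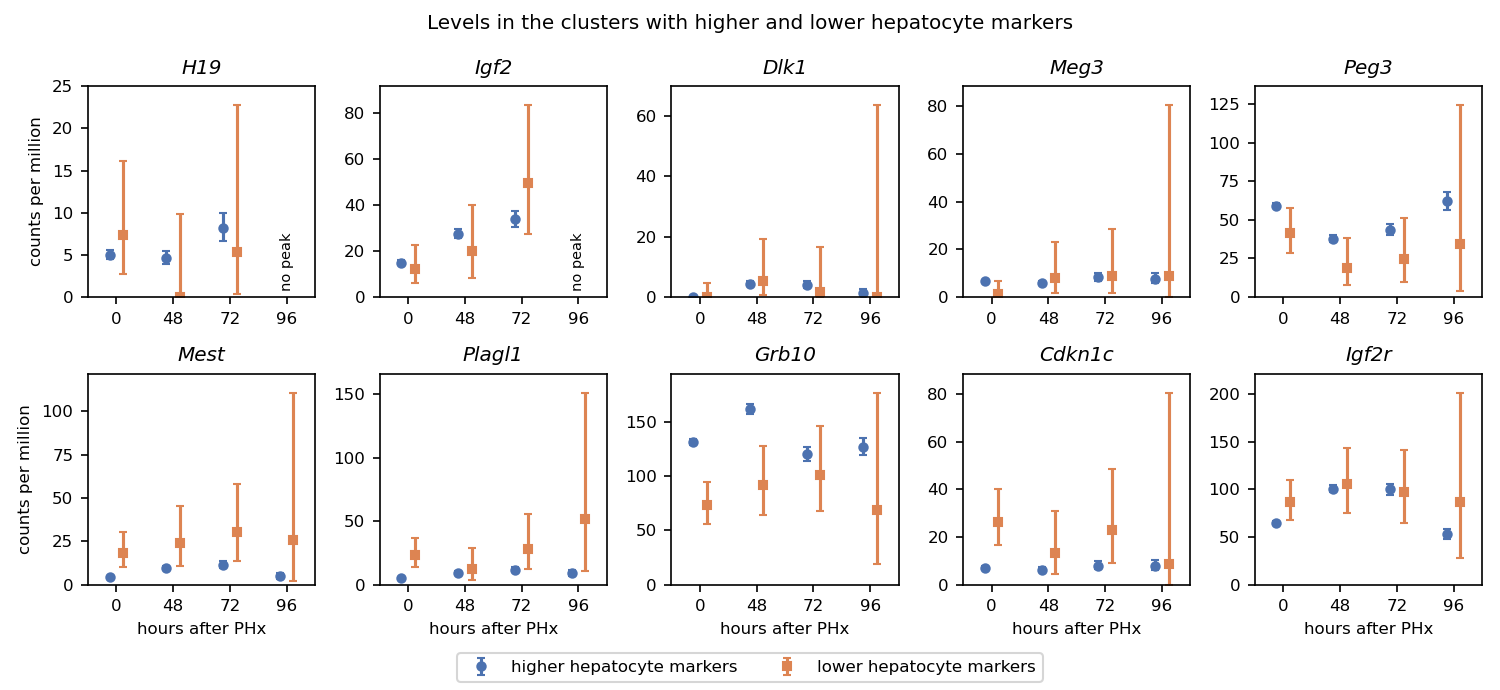
Counts per 1000000 (CPM) over each gene (y axis, starting at 0) at 0, 48, 72 and 96 h in the 6 clusters with higher (circles) and the 2 with lower hepatocyte markers, summed (squares), with 95% counting intervals. Squares lie above circles for Mest, Plagl1 and Cdkn1c and below for Peg3 and Grb10 in each library, with wide intervals at 96 h.

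Of 50 other imprinted genes, 42 passed the minimum, and 3 were at least 2-fold higher and 1 lower at 48 h, 8 and 3 at 72 h, and 4 and 4 at 96 h. Of all genes, 7.69% were higher and 2.53% lower at 48 h, 12.1 and 7.71% at 72 h, and 6.64 and 13.5% at 96 h. Their median log2 ratios were 0.17, 0.26 and 0.13. Begain, next to Dlk1, had no peak at 0 h and 2.79, 19.8 and 0.134 CPM later, and Klf14, in the Mest cluster, had 1.49, 4.66 and 7.89 CPM and no peak at 96 h. Both passed the minimum through the 72 h library and were also among the 8 higher at 72 h. Little therefore rests on their part in the count of 3 at 48 h or of 8 at 72 h. Zrsr1 had 69.8, 18.8, 18.6 and 16.9 CPM, and Slc38a4, an amino acid transporter, had 639.1, 420.6, 265.0 and 347.6. The covered length fell as well, for Zrsr1 over 11361, 3514, 3056 and 1463 bp. For Slc38a4 it was 66563, 59879, 46613 and 29358 bp. Of the genes that overlap a member, Airn had 90.6, 115.3, 110.8 and 85.3 CPM, Usp29 had 98.1, 77.8, 86.2 and 120.2, and Copg2 had 31, 29.2, 32.4 and 36.9, all sharing peaks with the member.

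Among 13 factors that read, set, keep or remove the methylation of imprints (the Tet enzymes oxidise it), 2 were at least 2-fold higher and 0 lower at 48 h, 1 and 1 at 72 h, and 0 and 3 at 96 h, beside the same shares of all genes. Those higher at 48 h were Uhrf1 and Dnmt1, which copy methylation to new DNA at replication. Uhrf1 had 19.3, 62.3, 22.1 and 25.2 CPM over 3052, 16324, 3071 and 2137 bp, and Dnmt1 had 19.8, 51.6, 20.6 and 20.9 over 2585, 15645, 3195 and 1940 bp. Both were high at 48 h only, where their peaks were also longest. Named after their values were seen, Tet1 was the 1 higher at 72 h, Trim28 was lower at 72 and 96 h (log2 ratios -1.66 and -1.15), and Setdb1 (-2.48) and Zfp445 (-1.23) were lower at 96 h. The covered length fell with these levels, for Trim28 from 43988 bp at 0 h to 11861 and 7554 bp. By 96 h that of Setdb1 went from 18622 to 2953 bp and that of Zfp445 from 9679 to 780 bp. Dppa3 had 23.1, 17.9, 20.7 and 22.9 CPM and Dnmt3a, a de novo methyltransferase, had 305.1, 262.1, 241.7 and 197.6.

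Of 16 receptors and partners of IGF signalling, 0 were 2-fold higher at any time, and 2, 5 and 5 were 2-fold lower at 48, 72 and 96 h, where 2.53, 7.71 and 13.5% of all genes were. Igfbp3, which carries IGFs in the blood, had 251.0 CPM at 0 h and 13.9, 15.2 and 11.4 later, and Igfbp2 had 388.6, 171.2, 152.5 and 69.8. The covered length fell too, for Igfbp3 from 17517 bp to 3270, 2718 and 814 bp. For Igfbp2 it was 33501, 31634, 29244 and 5839 bp. The receptor gene Igf1r had 63.7, 116.9, 106.6 and 66 CPM over 16835, 34058, 19450 and 4390 bp. Igf2bp1, which binds Igf2 mRNA, had 8.58, 14.3, 15.8 and 0.201 CPM over 3025, 4025, 3281 and 69 bp. Of 6 postnatal repressors of fetal liver genes and their targets, 0 were 2-fold higher or lower at 48 h, 1 (Lpl, log2 ratio 1.13) was higher and 0 lower at 72 h, and 0 were higher and 1 (Afp, -1.13, named after its value was seen) lower at 96 h. Of all genes, 12.1% were higher at 72 h and 13.5% lower at 96 h. Zbtb20, a repressor of Afp, had 735.9, 1017, 580.1 and 439.2 CPM, and Lpl had 11.4, 21.4, 25.6 and 17.4.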

How the data were processed

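Single-nucleus ATAC-Seq counts of 4 libraries were used. Per the file headers the authors made them with Cell Ranger ATAC 1.1.0, as deposited counts of transposase cuts per peak and barcode, with peaks called separately in each library, and the submitters' processing notes name mm10. Nothing was normalized before deposit. Members and gene lists were chosen with earlier results of these data known, and all 10 members are named. From each list around them, the 2 greatest rises and, where any gene fell, the 2 greatest falls at 48 h are named, with any gene that overlaps a member; others are marked as named after their values were seen. Here barcodes with at least 1000 counts were kept and counts summed over GENCODE vM21 genes plus 2 kb upstream, or 1000 bp on each side of the 5′ end, with each overlapping peak taken whole, and scaled to counts per 1000000 (CPM). Log2 ratios to 0 h used a pseudocount of 0.5 CPM and genes with a mean of at least 3 CPM. Intervals were exact Poisson or binomial at 95%. No doublet caller was run, and leaving out the 5% of barcodes with the most counts was tried instead. Nuclei were clustered by TF-IDF, truncated SVD and Leiden (30 components, 30 neighbours, resolution 0.5, leidenalg 0.10.2). Python 3.11.15, numpy 2.4.6, scipy 1.17.1, pandas 2.3.3, scikit-learn 1.9.0 and matplotlib 3.10.9 were used. RefSeq promoter windows of GRCm38.p6 run from 250 bases before to 50 after each start and held 8 of the 10 members. The calculation was tested on simulated data. Alternatives were the barcode minimum, scaling, window, peak choice, pseudocount, filter and clusters.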

Additional observations from a re-analysis of the deposited data

How the results depend on the processing

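With 1 library per time, depth falling from 0 to 96 h and peaks called per library, a level moves with called length, and time cannot be told apart from library. The members with a value were 9 as reported, 10 with 5 kb upstream, in binarised counts and with no filter on low values (Dlk1 added), 8 in peaks shared by all libraries, 5 in the promoter alone and 2 in peaks of near-equal length. The number at least 2-fold higher at 48 h was 1 (Mest). It was 0 in shared peaks, in peaks of near-equal length, per kb of covered peak and with a pseudocount of 2 CPM, and 2 in the promoter alone (Igf2 and Grb10) and with 5 kb upstream or no filter (Mest and Dlk1, the latter at log2 ratios of 3.91 and 3.19). In binarised counts it was 1, but this was Dlk1 (3.35), and Mest was at 0.72. The share of all genes higher at 48 h was 7.69% as reported, 4.9% in shared peaks and 0.909% both at near-equal length and per kb. With a pseudocount of 2 it was 5.93%, in the promoter 8.03%, with 5 kb upstream 7.73%, with no filter 12.7% and in binarised counts 5.39%. At 72 h the number was 3, but 4 with 5 kb upstream and no filter (with Dlk1), 2 in the promoter and with a pseudocount of 2, 1 in shared peaks (Mest) and in binarised counts (Dlk1, 3.19), and 0 in peaks of near-equal length and per kb. The share of all genes higher at 72 h was 12.1% as reported, 12.3% with 5 kb upstream and 18.1% with no filter. In the promoter it was 10.0%, with a pseudocount of 2 9.78%, in shared peaks 8.28% and in binarised counts 8.18%. At near-equal length it was 6.99% and per kb 3.02%. At 96 h the number 2-fold higher was 0, but 1 with 5 kb upstream, in binarised counts and with no filter (Dlk1 in each), and 5 per kb, where 65.4% of all genes were. The share of all genes was 6.64% as reported, 6.75% with 5 kb upstream, 4.45% in binarised counts and 5.85% with no filter. The number 2-fold lower at 96 h was 2, but 1 in shared peaks and in the promoter and 0 in peaks of near-equal length. The share of all genes lower was 13.5% as reported, 10.6% in shared peaks, 15.6% in the promoter and 0.35% at near-equal length. Only Peg3 and Grb10 have peaks of near-equal length, and over these the median log2 ratio was -0.38 at 48 h and -0.10 at 72 h. Per kb the median was 1.07 at 96 h, where that of all genes was 1.19. The median at 48 h, 0.30, was also below 0 in shared peaks (-0.02), per kb (-0.14) and in the promoter (-0.20), and at 96 h the median ran from -0.45 in the promoter to that 1.07. The Mest ratio at 48 h reversed to -0.03 per kb. Smaller ratios changed sign per kb too, for Grb10 at 48, 72 and 96 h, Igf2r at 48 h (-0.20) and 96 h (1.22) and Meg3 at 72 h (-0.12), and in the promoter Igf2r went to -0.38 at 48 h and -0.94 at 72 h. Leaving out barcodes found in another library was chosen after seeing the data. No paired analysis was possible because each time had 1 library.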
